A study of Mus musculus with 8 samples.

Results

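The Hox genes, the homeobox genes that give each level of the body axis its positional identity, were examined in lumbar spinal cord of 8 male SOD1G93A mice. Every gene of the count table whose symbol is Hox, a cluster letter a to d and a number was included, which gave 39 of 55291 genes. The 4 Ager-deleted mice (E1776, E5231, E5568 and E5248) were SOD1G93A Agerfl/fl Cx3cr1Cre/+, and the 4 Cre control mice (E5386, E6732, E5642 and E6578) were SOD1G93A Ager+/+ Cx3cr1Cre/+. All mice therefore carried the mutant human SOD1 transgene and a tamoxifen-inducible Cre in 1 allele of Cx3cr1, and all received tamoxifen at 12 weeks of age, so that the genotypes differ in the floxed Ager alleles. Cx3cr1 drives the Cre in microglia and related macrophages, whereas the RNA came from the whole lumbar cord. The labels give an age of 120 days and sacrifice at 4 months, while the text of the study also speaks of end-stage tissue.

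Mammals hold their Hox genes in 4 clusters on 4 chromosomes. Within a cluster the genes lie in the order of their paralog numbers, and genes with low numbers are switched on further rostrally than genes with high numbers. Members with the same number in different clusters are paralogs. The proteins bind DNA through the homeodomain, often with the cofactors Pbx and Meis. In the developing spinal cord, groups 4 to 8 are associated with brachial levels, 8 and 9 with thoracic levels, 10 and 11 with lumbar levels, and 12 and 13 with sacral and caudal levels, and adult cord keeps much of this pattern. On GRCm38 the clusters span chr6:52155590-52260880 (Hoxa, 11 genes), chr11:96194316-96368256 (Hoxb, 10 genes), chr15:102921103-103036852 (Hoxc, 9 genes) and chr2:74668310-74765142 (Hoxd, 9 genes).

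Counts on genes summed to 31148047 to 40324897 per mouse. At these depths 3 counts, taken as the detection floor, correspond to 0.0729 to 0.0975 CPM, the count scaled to library size after TMM normalization. Hox genes took 23279 to 32411 counts per mouse, or 742 to 823 CPM. In 3 libraries genes of other tissues stood apart. The mean log2(CPM + 1) of skeletal muscle genes was 5.25 in E5386 and 5.62 in E5642, both Cre control mice, against 1.75 to 2.15 in the other mice, and the 6 liver genes summed to 581 CPM in the Cre control mouse E6732 against at most 1.64 CPM elsewhere. The 5 myelinating Schwann cell genes and the 6 meningeal genes had their lowest sums in E5386 (480 and 73.0 CPM, against up to 1380 and 501 CPM in other mice). The 9 neuronal genes had their highest sum in the Ager-deleted mouse E5248 (3210 CPM, 2180 to 2920 CPM elsewhere). *Snap25* made up 1780 CPM of that sum, and *Rbfox3*, *Slc32a1* and *Chat* were highest in other mice. Ager, the deleted gene, was at 0.889 to 1.51 CPM in Ager-deleted mice and at 1.53 to 2.41 CPM in Cre control mice. The log2 fold change was 0.81, and edgeR's exact test gave an adjusted p of 0.252.

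Genes that mark the ends of the axis were set beside the lumbar label. Of 11 homeodomain genes of forebrain and midbrain, *Otx1*, *Otx2*, *Six3* and *Emx2* had at most 3 counts in every mouse, whereas 3 passed the filter on low counts. These were *En2* with 95 to 150 counts, *Lhx2* with 13 to 29 and *Dmbx1* with 7 to 27. The cholinergic motor neuron gene *Chat* was at 10.8 to 20.6 CPM.

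Of the 39 Hox genes, 32 had more than 3 counts in all 8 mice, and 6 had more than 3 counts in some mice only. Those 6 all belong to groups 12 and 13 (*Hoxc12*, *Hoxd12*, *Hoxa13*, *Hoxb13*, *Hoxc13* and *Hoxd13*). *Hoxb1*, a hindbrain gene of rhombomere 4, did not exceed 3 counts in any mouse. Its paralog *Hoxd1* had 16 to 32 counts. A total of 33 members passed the filter on low counts and were tested between genotypes, and the 6 that did not pass were *Hoxa13*, *Hoxb1*, *Hoxb13*, *Hoxc13*, *Hoxd12* and *Hoxd13*.

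Levels of different genes were compared as CPM per kilobase of the gene's exons. On this scale the members rose from group 1 to groups 8 to 10 and fell steeply beyond group 10. Group 8 held 28.7% of the summed level, group 9 17.8% and group 10 16.6%. Group 11 held 1.95%, group 12 0.411% and group 13 0.102%, and groups 1 to 3 together held 2.29% to 2.60% in each mouse. Per kilobase of exon that overlaps no other gene, groups 1 to 3 held 3.58% to 4.12%, and group 3, which has overlapping genes, moved from 1.4% to 2.66%, whereas no other group moved by over 1.5 times. Cluster B held 46.1% of the summed level, or 145 ± 9.94 CPM per kilobase (SD, n = 8). Cluster C summed to 62.9 ± 2.67, cluster A to 55.1 to 64.8 per mouse and cluster D to 47.1 ± 3.97 CPM per kilobase.

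*Hoxb8* was the highest member at 59.5 ± 5.75 CPM per kilobase (SD, n = 8), followed by *Hoxb9* at 31.3 ± 1.72 and *Hoxc10* at 29.2 ± 2.69. *Hoxb8* was above *Hoxb9* in every mouse, since their ranges did not overlap, whereas the ranges of *Hoxb9* and *Hoxc10* overlapped. *Hoxb6* (20.4 ± 1.47) and *Hoxd8* (19.2 ± 0.977) came next. *Hoxd8* was the highest of cluster D, *Hoxc10* of cluster C and *Hoxa7* (13.4 ± 0.839) of cluster A. Of the 38 neighbouring pairs in this order, 34 had overlapping ranges over the mice. Within single mice, where both genes of a pair come from the same library, 8 pairs had the same order in all 8 mice, among them *Hoxb6* above *Hoxd8*, and the other 30 did not.

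Within clusters the profiles differed in where they peaked. Cluster A had its highest means at *Hoxa5* (11.7 ± 1.25 CPM per kilobase), *Hoxa7* and *Hoxa10* (10.1 ± 0.420). Means were lower between them at *Hoxa6* (7.93, range 6.85 to 11.1) and *Hoxa9* (8.91, range 8.28 to 10.1). Both of these ranges overlapped that of *Hoxa10* (9.79 to 10.9). Without division by length *Hoxa9* was the highest of cluster A, at 49.7 CPM against 38.6 CPM for *Hoxa7*. Cluster B had its peak at *Hoxb8* and has no Hox gene between *Hoxb9* and *Hoxb13*. Cluster C peaked at *Hoxc10*, a gene that with its paralogs specifies limb-innervating motor neurons of the lumbar cord, and dipped at *Hoxc5* (1.20 ± 0.218). Cluster D was high at *Hoxd8*, *Hoxd9* (9.90 ± 0.906) and *Hoxd10*, which ranged from 7.41 to 20.3 over the mice. *Hoxc12* had 1.27 ± 1.69 CPM per kilobase and *Hoxc13* 0.195 ± 0.339, SDs larger than the means.

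**Figure D1:**
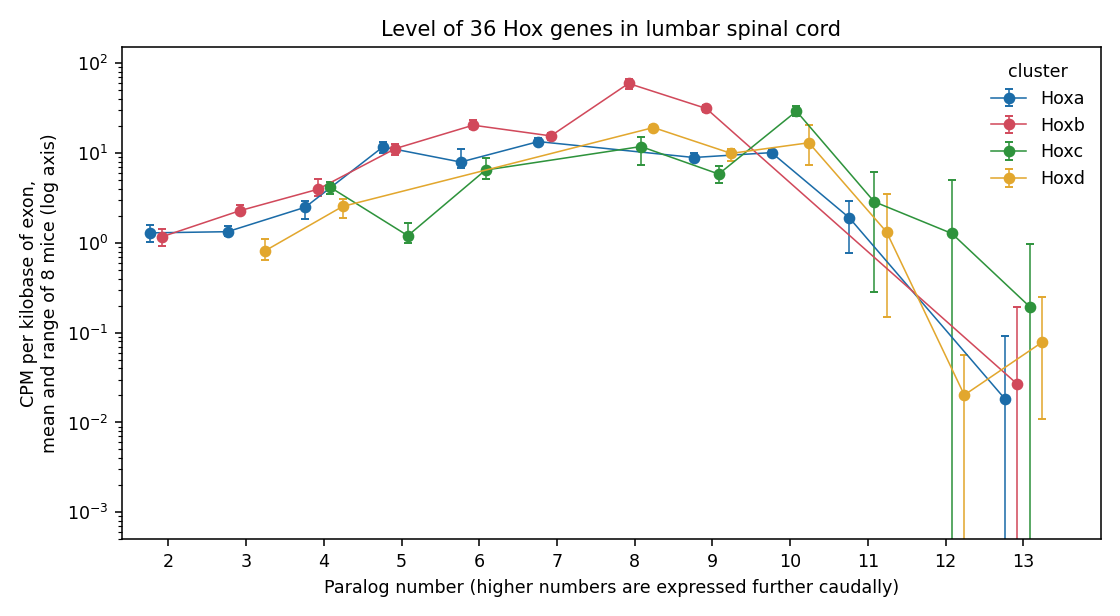
Mean CPM per kilobase of exon on a log axis for the 36 Hox genes of groups 2 to 13 by paralog number, with bars from the lowest to the highest of the 8 mice and 1 colour per cluster. Bars that reach the lower edge belong to genes with 0 counts in at least 1 mouse. Levels rise to Hoxb8 (59.5) and fall beyond group 10, where the ranges over the mice widen.

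Exons of some members overlap other genes, and reads there cannot be placed on 1 gene. *Gm28308* and *Mir196b*, which have no exon base of their own on either strand, had 0 counts in every mouse. Reads on shared bases may therefore be missing from the counts, and levels per kilobase of all exons may be too low for overlapped members. *Hoxd3* was at 0.812 CPM per kilobase of exon and at 2.18 per kilobase of exon that overlaps no other gene. Exons of *Hoxd3* and *Hoxd4* overlap each other and noncoding transcripts, so that 37.2% and 47.7% of their exon bases belong to no other gene on either strand. The share was 47.1% for *Hoxb3*, which overlaps the antisense gene *Hoxb3os*, and 65% for *Hoxa11*, which overlaps *Hoxa11os*. The library kit marks strand, but the strand setting of the counting is not given in the sources used here. *Hoxb8*, *Hoxc11*, *Hoxc12* and *Hoxc13* share no exon with another gene.

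The homeobox of the highest member and of the members at the caudal edge of detection are printed here, since genes with alike coding sequences can share reads. The 180 bases are from GENCODE M21 transcripts on GRCm38, read 5′ to 3′, with the conserved core of the DNA-recognition helix (bases 142 to 159) in capitals.
Hoxb8: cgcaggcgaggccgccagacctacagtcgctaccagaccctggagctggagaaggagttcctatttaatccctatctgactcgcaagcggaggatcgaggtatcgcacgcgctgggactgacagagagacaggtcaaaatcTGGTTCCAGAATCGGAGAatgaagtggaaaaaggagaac
Hoxc11: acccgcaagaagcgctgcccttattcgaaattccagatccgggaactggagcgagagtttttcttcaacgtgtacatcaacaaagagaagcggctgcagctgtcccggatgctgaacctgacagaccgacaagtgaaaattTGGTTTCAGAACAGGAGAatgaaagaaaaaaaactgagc
Hoxd11: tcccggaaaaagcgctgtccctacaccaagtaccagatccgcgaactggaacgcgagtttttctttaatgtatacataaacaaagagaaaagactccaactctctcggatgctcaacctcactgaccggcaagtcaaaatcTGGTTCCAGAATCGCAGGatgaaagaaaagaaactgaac
Hoxc12: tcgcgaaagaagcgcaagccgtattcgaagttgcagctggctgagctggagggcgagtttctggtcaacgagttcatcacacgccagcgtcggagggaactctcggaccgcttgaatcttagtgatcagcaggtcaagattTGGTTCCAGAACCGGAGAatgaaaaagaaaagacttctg

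Over the 180 bases, *Hoxc11* and *Hoxd11* were 79.4% identical and *Hoxa11* and *Hoxc11* 86.7% identical. *Hoxc11* and *Hoxc12* were 65.0% identical, and *Hoxb8* and *Hoxc11* 56.7%. Among the 42 pairs of the same paralog number the median identity was 80.6% and the maximum 93.9%, and among the 172 pairs of the same cluster with different numbers the median was 61.7%.

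The 8 mice differed little in most Hox genes and greatly in those at the caudal end. The biological coefficient of variation, edgeR's moderated estimate of the spread between mice of one genotype, had a median of 0.121 over the 19 genes of groups 4 to 9, with a range of 0.0841 to 0.19. Over all 19470 tested genes the median was 0.133 and the 90th percentile 0.251. In the 4 tested genes of groups 11 to 13 (*Hoxa11*, *Hoxc11*, *Hoxd11* and *Hoxc12*) it ranged from 0.306 to 1.21, and all 4 exceeded the 90th percentile. Of the 29 tested genes of groups 1 to 10, 2 did so. These were *Hoxd10* (0.270) and 1 of the 7 tested genes of groups 1 to 3. These estimates were made from the same mice as the levels below and describe them.

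**Figure D2:**
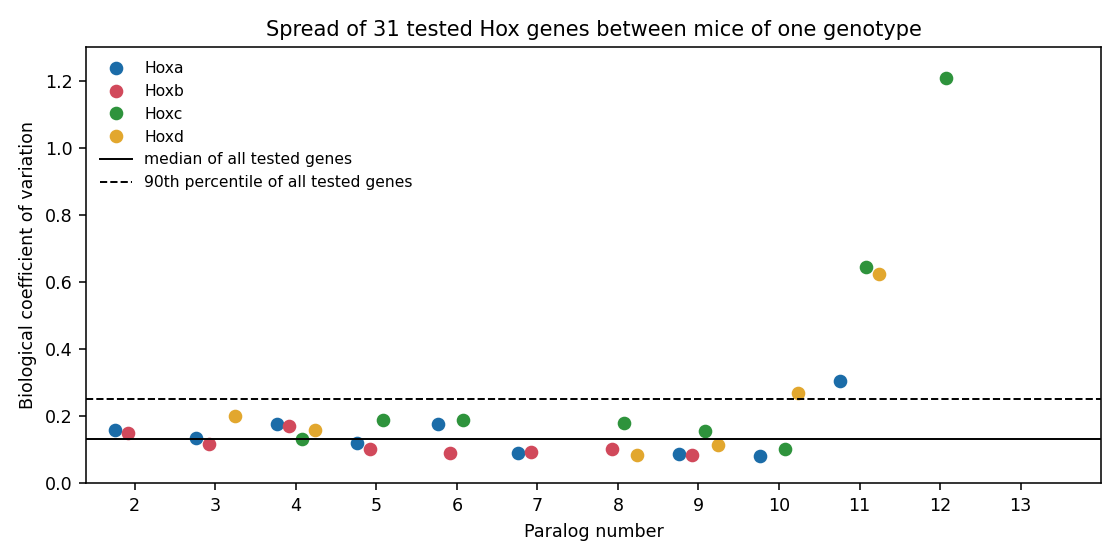
Biological coefficient of variation of the 31 tested Hox genes of groups 2 to 13 by paralog number, with the median (0.133, solid line) and the 90th percentile (0.251, dashed line) of all 19470 tested genes. Groups 4 to 9 sit between 0.0841 and 0.19, and the genes of groups 11 and 12 sit between 0.306 and 1.21.

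*Hoxc11* is a lumbar member that acts with *Hoxa11* and *Hoxd11* in the hindlimb region. Its counts were 75 in E1776, 171 in E5231, 337 in E5568 and 441 in E5248 among Ager-deleted mice, and 21 in E5386, 199 in E6732, 189 in E5642 and 231 in E6578 among Cre control mice. The level was 0.574 CPM in E5386 (95% interval 0.356 to 0.878, exact Poisson, counting error only) and 12.4 CPM in E5248 (11.3 to 13.7), a 21.7-fold range. The lowest and the highest mouse were of different genotypes, and the other 6 mice lay between 1.90 and 8.71 CPM.

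*Hoxd11* had the same lowest and highest mouse. Its levels were 2.39, 3.53, 7.73 and 14.8 CPM in the Ager-deleted mice in the same order, and 0.629, 4.89, 4.82 and 5.59 CPM in the Cre control mice. The highest mouse was 23.5-fold above the lowest, and the genotypes overlapped.

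*Hoxa11*, the third paralog, ranged from 1.78 CPM in E5386 to 6.74 CPM in E5248, which is 3.79-fold. *Hoxd10*, which with *Hoxc10* acts in lumbar motor neurons, ranged 2.74-fold, from 13.5 CPM in E5386 to 36.9 CPM in E5248. Its paralog *Hoxc10* ranged 1.29-fold, from 49.2 to 63.5 CPM, and *Hoxa10* 1.12-fold, from 32.0 to 35.8 CPM, again with E5386 lowest and E5248 highest. With all mice the fold from lowest to highest mouse therefore grew from group 10 to group 11. Without E5386 it was 1.93 for *Hoxa11* and 2.23 for *Hoxd10*, so that for *Hoxa11* this rests on E5386. *Hoxc11* and *Hoxd11* then still ranged more widely, 6.51-fold and 6.17-fold.

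The sacral and caudal members were present in some mice and not detected in others. *Hoxc12* had 0, 26, 90 and 185 counts in E1776, E5231, E5568 and E5248, and 0, 41, 22 and 16 counts in E5386, E6732, E5642 and E6578. In E1776 and E5386 the detection floor of 3 counts corresponds to 0.0762 and 0.0820 CPM, and the upper 95% exact Poisson limit of a count of 0 to 0.0937 and 0.101 CPM, against 5.22 CPM in E5248 (95% interval 4.50 to 6.03). *Hoxc13*, a gene of tail, skin and hair, had 84 counts in E5248 and 39 in E5568 and at most 9 in the other mice, with 0 in E1776, E5231 and E5386. *Hoxb13*, a gene of the tail bud and hindgut, had 15 counts in E5248 and at most 1 elsewhere. *Hoxa13* had 8 counts and *Hoxd13*, a gene of digits and the urogenital tract, 22 counts in E5248, against at most 2 and 8 in other mice, and *Hoxd12* had at most 5 counts anywhere.

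All 12 members of groups 10 to 13 were highest in E5248, and 11 of them were lowest, or among those at 0, in E5386. The exception was *Hoxa13*, which had 1 count in E5386 and 0 in E1776, E6578 and E6732. Of the 19 members of groups 4 to 9, 0 were highest in E5248 and 8 were lowest there. Of these members 7 were highest in E1776, 5 in E5231 and 6 in E5386, the 3 mice with the lowest values of the index described below. The other 1, *Hoxa4*, was highest in E6732. *Hoxc8*, a thoracic member, gave the widest of these ranges. It was at 38.5, 35.3, 29.0 and 21.1 CPM in E1776, E5231, E5568 and E5248 and at 42.5, 37.7, 32.4 and 30.1 CPM in E5386, E6732, E5642 and E6578, 2.02-fold from lowest to highest. These genes share libraries and are not independent of each other.

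**Figure D3:**
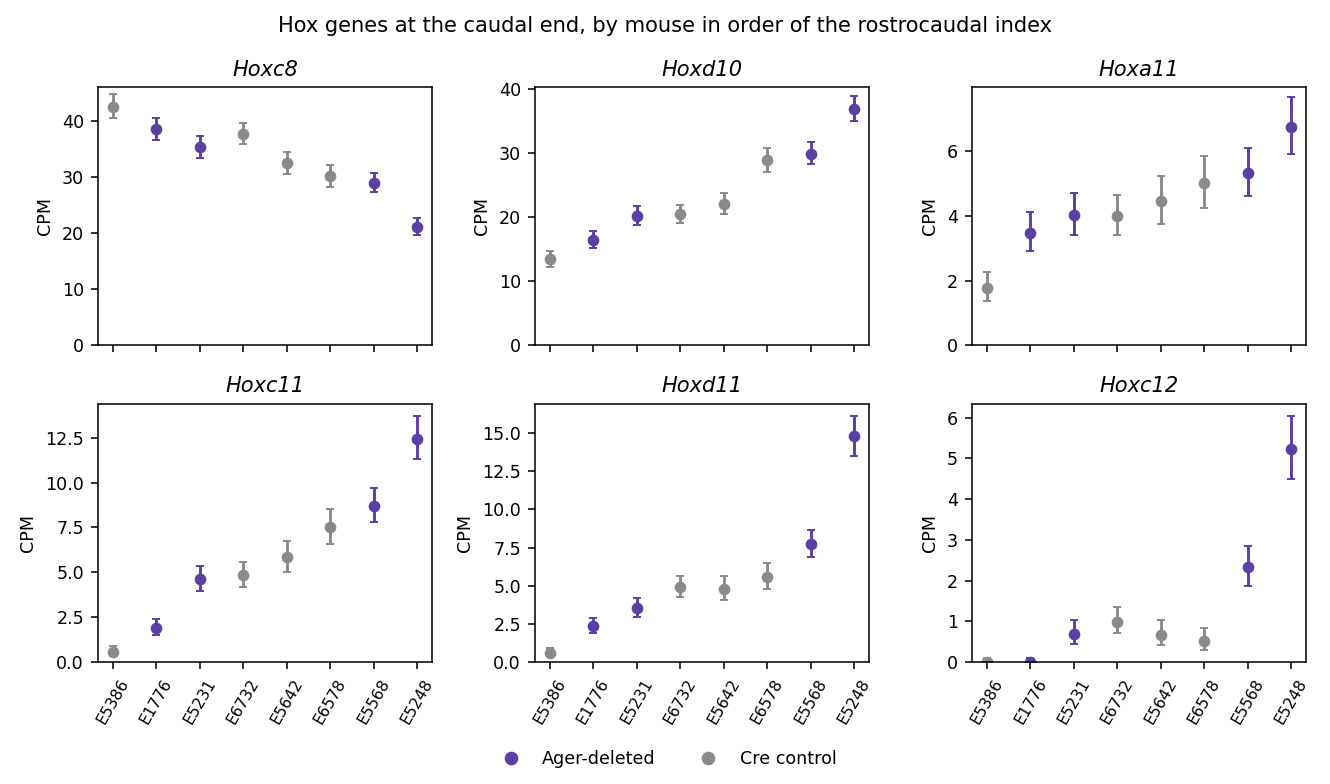
CPM of Hoxc8, Hoxd10, Hoxa11, Hoxc11, Hoxd11 and Hoxc12 in each mouse, with mice in order of the rostrocaudal index and bars for the 95% exact Poisson interval of the count. Hoxc8 falls from 42.5 CPM in E5386 to 21.1 CPM in E5248, while Hoxd11 rises from 0.629 to 14.8 CPM and both genotypes occur along the order.

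Leaving out E5386 alone reduced the range of *Hoxc11* from 21.7-fold to 6.51-fold, that of *Hoxd11* from 23.5-fold to 6.17-fold and that of *Hoxa11* from 3.79-fold to 1.93-fold, and the coefficient of *Hoxa11* was then 0.217, below the 90th percentile. Leaving out E5248 alone gave 15.2-fold, 12.3-fold and 3.00-fold, so that E5386 sets most of these ranges. In either case *Hoxd10* also fell below the 90th percentile, with 0.235 and 0.244. Leaving out E5386 and E5248 together reduced the range of *Hoxc11* to 4.52-fold and that of *Hoxd11* to 3.20-fold, over 6 mice. The median coefficient of the 4 genes was then 0.354, and 3 of the 4 exceeded the 90th percentile of all genes, with *Hoxa11* below it at 0.181.

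A rostrocaudal index was formed for each mouse as the mean paralog number of the 39 genes weighted by CPM per kilobase, so that a higher value means more RNA of caudal members. The index was 7.597 in E1776, 7.674 in E5231, 7.858 in E5568 and 7.996 in E5248, the Ager-deleted mice. It was 7.554 in E5386, 7.704 in E6732, 7.766 in E5642 and 7.831 in E6578, the Cre control mice. The mean was 7.781 ± 0.180 in Ager-deleted and 7.714 ± 0.119 in Cre control mice (SD, n = 4), and the difference of −0.067 was smaller than the SD of either genotype. It was 0.004 without E5248 and −0.014 without E5386, so that E5248 decides its sign. Of the 4 Cre control mice, 3 lay within the range of the Ager-deleted mice and E5386 lay below it. No test was made of this score, since it is built from the members.

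The share of groups 11 to 13 in the summed Hox level followed the same order of mice at its ends. It was 0.382% in E5386 and 0.941% in E1776, 3.55% in E5568 and 6.12% in E5248, and between 1.72% and 2.58% in the other 4 mice. Group 10 took 13.3% in E5386 and 20.5% in E5248. The summed level of all members varied less, from 299 to 331 CPM per kilobase.

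Clusters A, C and D each gave E5386 the lowest and E5248 the highest index when used alone. The range was 8.322 to 9.263 in cluster C, 8.112 to 8.786 in cluster D and 6.879 to 7.266 in cluster A. Cluster B, which has no member of groups 10 to 12, was almost flat at 7.339 to 7.378. In cluster B alone the genotypes did not overlap, with 7.339 to 7.362 in Ager-deleted and 7.367 to 7.378 in Cre control mice, a difference of 0.020 paralog numbers that has no test.

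**Figure D4:**
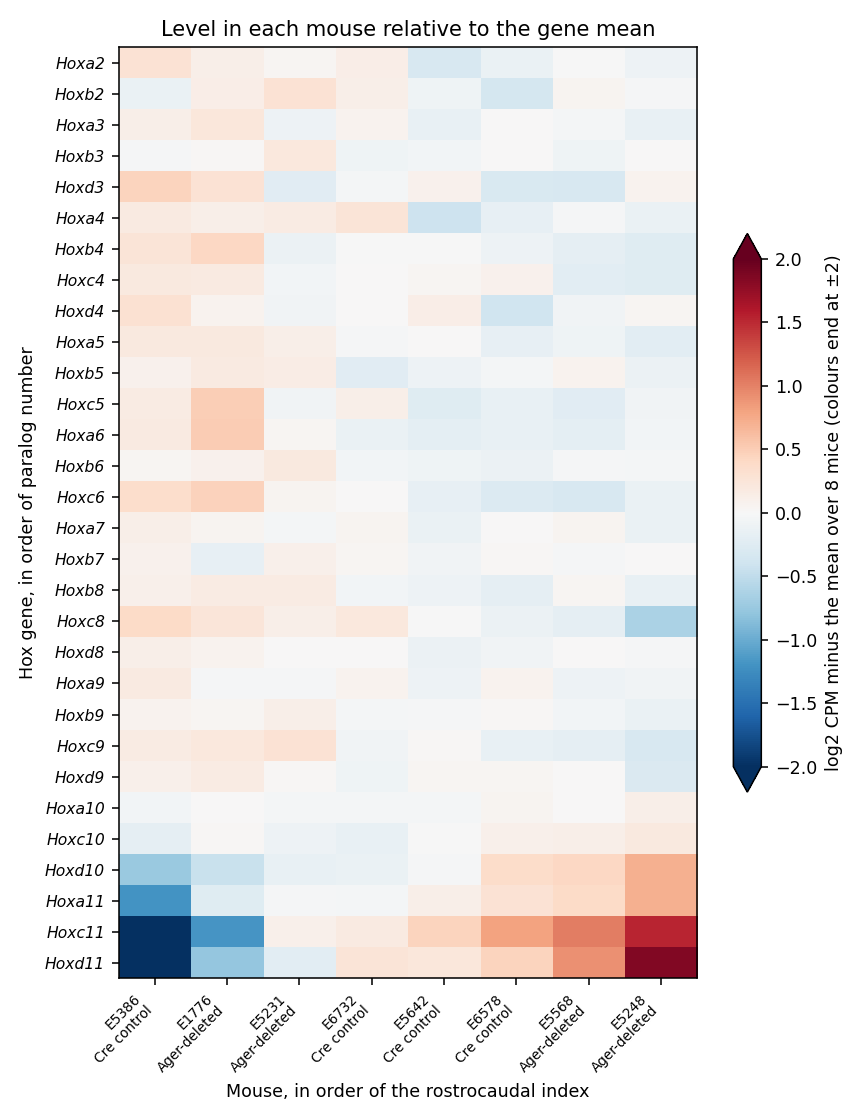
log2 CPM of the 30 Hox genes of groups 2 to 11 detected in all mice, minus the mean of the gene over the 8 mice, with genes in order of paralog number and mice in order of the rostrocaudal index. The rows from Hoxd10 down run from low in E5386 to high in E5248, most rows above vary little, and the genotypes are interleaved along the order.

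The order of mice was set beside the other features of the libraries. E5386, at the low end, had a muscle score of 5.25, but E5642 with 5.62 had a middle index of 7.766. Schwann cell genes summed to 480 CPM in E5386, 706 in E1776 and 727 in E5231, the 3 mice with the lowest index, and to 1040 to 1380 CPM in the other 5. Astrocyte and microglial genes had their lowest sums in E5248 (8680 and 742 CPM, against up to 13300 and 1320 CPM). Neuronal genes had their highest sum there. Much of the astrocyte and neuronal sums in E5248 came from *Gfap* (6640 CPM) and *Snap25* (1780 CPM). Other listed genes did not follow the sums. *Aqp4*, *Slc1a3*, *Gjb6* and the microglial gene *P2ry12* were lowest in other mice, and *Rbfox3*, *Slc32a1* and *Chat* were highest in other mice. In RNA from whole tissue, fewer cells of a type and less RNA per cell cannot be told apart. The labels give the tissue as lumbar cord without the segments taken, and the part of any of these features in the Hox values was not tested.

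Whether microglial Ager deletion goes with a change in positional identity was addressed by comparing the genotypes gene by gene. Of the 33 tested members, 0 were called at an adjusted p under 0.05 by edgeR's exact test, in which 14 of 19470 genes (0.0719%) were called, 12 higher (0.0616%) and 2 lower (0.0103%) in Cre control mice. None had an unadjusted p under 0.05, against 829 of all genes (4.26%), and the smallest was 0.161, for *Hoxc12*. The quasi-likelihood test called 0 members and 1 gene of all (0.00514%), with 0 members at an unadjusted p under 0.05 against 1307 genes (6.71%). No member had genotypes that did not overlap in CPM, against 755 of all genes (3.88%). DESeq2 called 0 members and 27 of 21046 genes (0.128%), and limma-voom 0 members and 1 of 19470 genes (0.00514%). Both gave 0 members an unadjusted p under 0.05, against 1417 of 38113 genes (3.72%) in DESeq2 and 1189 of 19470 (6.11%) in limma-voom.

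By sign, 13 members were higher and 18 lower in Cre control mice and 2 were at 0.00, with a median log2 fold change of −0.03 (−0.00692 over all tested genes). Over groups 4 to 9 the log2 fold changes lay between −0.17 and 0.20. All 7 tested members of groups 10 to 13 had negative values, from −0.04 for *Hoxa10* to −1.90 for *Hoxc12*, none past the threshold. These 7 values rest on the same few mice and are not 7 independent measurements. E5386 is a Cre control mouse and E5248 an Ager-deleted mouse, and without E5248 the log2 fold change of *Hoxc11* was −0.12 and without E5386 −0.18.

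*Hoxc12* had the largest difference, with 2.06 ± 2.32 CPM in Ager-deleted and 0.549 ± 0.416 CPM in Cre control mice (SD, n = 4), a log2 fold change of −1.90 ± 1.06 (SE) and by edgeR's exact test an adjusted p of 1.0. *Hoxd11* was at 7.11 ± 5.61 and 3.98 ± 2.26 CPM, with a log2 fold change of −0.84 ± 0.64 and an unadjusted p of 0.201 in the same test. *Hoxc11* was at 6.92 ± 4.63 and 4.69 ± 2.96 CPM (−0.56 ± 0.65, p = 0.405 in edgeR's exact test). In the exact two-sided permutation test over the 70 assignments of mice, p was 0.314 for *Hoxc12*, 0.400 for *Hoxd11* and 0.543 for *Hoxc11*, where the smallest p possible is 0.0286. For each of these genes the difference between the means was smaller than the SD in Ager-deleted mice. Without E5248 the log2 fold change was −0.87 for *Hoxc12* and −0.19 for *Hoxd11*, and without E5386 it was −1.48 and −0.47.

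The members with the highest CPM per kilobase in each cluster were measured far more closely. *Hoxb8* was at 163 ± 16.6 CPM in Ager-deleted and 151 ± 12.7 CPM in Cre control mice (log2 fold change −0.11 ± 0.09 SE). *Hoxc10* was at 58.0 ± 5.06 and 53.5 ± 4.75 CPM (−0.12 ± 0.08). *Hoxa7* was at 38.6 ± 2.41 CPM over all 8 mice (0.03 ± 0.07), and *Hoxd8* at 53.1 ± 1.53 and 52.1 ± 3.71 CPM (−0.03 ± 0.06). The unadjusted p of these 4 genes was 0.283, 0.272, 0.772 and 0.757 in edgeR's exact test, and each adjusted p was 1.0. A p that misses the threshold does not show that the genotypes are alike.

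**Figure D5:**
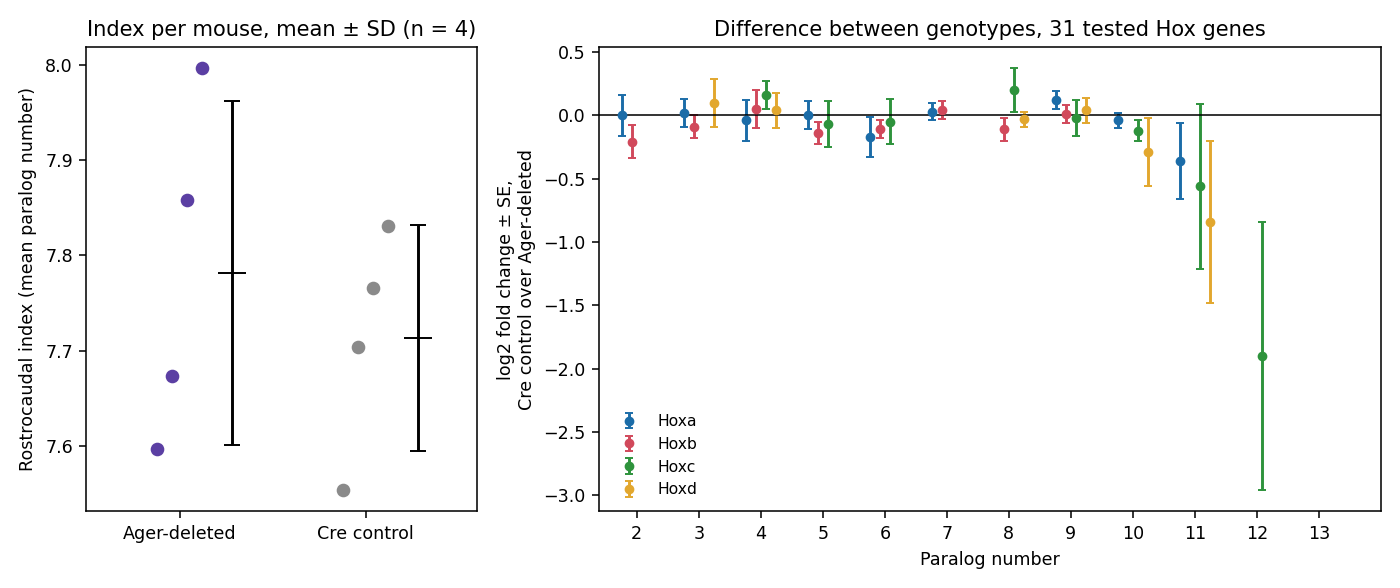
Left, rostrocaudal index of each mouse with the mean and SD of each genotype (n = 4), 7.781 ± 0.180 in Ager-deleted and 7.714 ± 0.119 in Cre control mice. Right, log2 fold change of Cre control over Ager-deleted mice with its standard error for the 31 tested Hox genes of groups 2 to 13 by paralog number, where groups 4 to 9 lie within −0.17 to 0.20 and the standard errors widen beyond group 10.

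The promoters of caudal members that moved together across mice, with that of *Hoxb8* for contrast, are shown with CpG dinucleotides in capitals, since unmethylated CpG islands are where Polycomb complexes hold silent Hox genes. The 300 bases run from 250 before to 50 after the start site in RefSeq on GRCm38.p6, where 22 of the 39 members had an entry, 2 of them with a second start site.
Hoxb8, chr11:96281655-96281954, plus strand: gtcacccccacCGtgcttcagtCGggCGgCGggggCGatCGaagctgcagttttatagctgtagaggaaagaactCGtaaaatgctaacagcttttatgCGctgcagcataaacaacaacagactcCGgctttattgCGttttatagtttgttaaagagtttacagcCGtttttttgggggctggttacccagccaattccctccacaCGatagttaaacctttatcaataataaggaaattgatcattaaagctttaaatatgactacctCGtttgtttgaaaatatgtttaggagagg
Hoxd10, chr2:74691641-74691940, plus strand: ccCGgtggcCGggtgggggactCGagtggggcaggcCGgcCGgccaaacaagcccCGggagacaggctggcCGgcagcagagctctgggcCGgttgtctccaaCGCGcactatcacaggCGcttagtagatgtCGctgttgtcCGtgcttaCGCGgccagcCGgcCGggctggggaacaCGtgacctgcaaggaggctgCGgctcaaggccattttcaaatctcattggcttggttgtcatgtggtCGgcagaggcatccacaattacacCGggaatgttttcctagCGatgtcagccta
Hoxa11, chr6:52245761-52246060, minus strand: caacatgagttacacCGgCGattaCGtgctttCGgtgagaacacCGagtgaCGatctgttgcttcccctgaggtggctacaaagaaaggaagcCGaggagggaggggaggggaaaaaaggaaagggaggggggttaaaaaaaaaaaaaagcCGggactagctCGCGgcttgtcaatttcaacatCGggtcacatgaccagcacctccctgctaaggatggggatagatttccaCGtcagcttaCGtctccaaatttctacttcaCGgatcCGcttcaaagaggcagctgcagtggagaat
Hoxd11, chr2:74682073-74682372, plus strand: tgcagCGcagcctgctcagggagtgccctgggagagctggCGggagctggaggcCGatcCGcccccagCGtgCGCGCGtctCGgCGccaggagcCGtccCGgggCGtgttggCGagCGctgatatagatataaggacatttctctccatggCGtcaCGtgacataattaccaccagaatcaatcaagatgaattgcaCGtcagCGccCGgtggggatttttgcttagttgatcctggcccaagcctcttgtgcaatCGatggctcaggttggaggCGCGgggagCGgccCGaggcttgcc

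The *Hoxb8*, *Hoxd10*, *Hoxa11* and *Hoxd11* promoters held 13, 22, 15 and 25 CpG, and the other *Hoxd11* start held 4. Over the 24 Hox promoters the median was 14.5 (range 4 to 45), and over all 32851 promoters it was 7. On both strands, TATAAA was found in 4 and CCAAT in 15 of the 24 (13.6% and 37.4% of all promoters), TTTATG in 5 (11.9%) and GGGCGG in 10 (35.7%). Different motifs among these cannot match at the same place. The *Hoxb8* promoter held all 4, the *Hoxd10* promoter held CCAAT alone and the *Hoxa11* promoter none of them. A match describes these letters only.

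The clusters hold 46 other genes between their outermost Hox genes, most of them noncoding. Of a list of 51 genes in and beside the clusters, 47 were in the table and 22 were tested, and 0 were called by edgeR's exact or quasi-likelihood test, with a median log2 fold change of −0.05. An unadjusted p under 0.05 was given to 1 of the 22 by the exact test (4.26% of all genes) and to 3 by the quasi-likelihood test (6.71% of all genes), and 4 of the 22 had genotypes that did not overlap (3.88% of all genes). These 4 were *Gm11536*, which had lower values in all 4 Cre control mice (log2 fold change −0.23 ± 0.13), and *Gm11539* (0.55 ± 0.21), *Gm15050* (0.37 ± 0.16) and *Gm29430* (0.82 ± 0.31), which had higher values in all 4, and they were named after their values were seen. *Gm29430*, an antisense transcript in cluster A, had an unadjusted p of 0.0253 in edgeR's exact test at 5 to 20 counts. *Hotair*, a long noncoding RNA transcribed antisense between *Hoxc11* and *Hoxc12*, was chosen after its values were seen. It had 9, 44, 111 and 219 counts in E1776, E5231, E5568 and E5248 and 6, 96, 71 and 80 in E5386, E6732, E5642 and E6578, with the same lowest and highest mouse as its neighbours. Its log2 fold change was −0.52 ± 0.82 (SE), and 0.35 without E5248. *Hoxa11os* had its lowest level in E5386 (0.957 CPM) and its highest in E5248 (3.30 CPM), and it shares exon sequence with *Hoxa11*. *Hottip*, at the 5′ end of cluster A, had 0 counts in every mouse.

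The clusters also encode microRNAs that repress Hox mRNAs. The library captured polyadenylated RNA, so the counts at these genes are of longer precursors and not of mature microRNAs. *Mir196a-1*, between *Hoxb9* and *Hoxb13*, had 50 to 89 counts per mouse, whereas *Mir10b* had 6 to 18, *Mir10a* 1 to 9, *Mir196a-2* at most 5 and *Mir196b* 0. *Mir196b* lies wholly inside an exon of *Hoxa9* on the same strand, so that its 0 cannot be compared with the other counts. The mature sequences are from RefSeq, with the seed (bases 2 to 8) in capitals, and the miR-196 and the miR-10 members each share a seed.
mmu-miR-196a-5p: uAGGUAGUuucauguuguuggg
mmu-miR-196b-5p: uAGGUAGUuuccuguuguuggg
mmu-miR-10a-5p: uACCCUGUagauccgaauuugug
mmu-miR-10b-5p: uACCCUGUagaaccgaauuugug
The known site of miR-196a in the 3′ untranslated region of *Hoxb8* was the best match among all members, with 21 of 22 positions in Watson-Crick pairs (capitals, in DNA letters). The other position lies in the seed and sets a G opposite a U.
Hoxb8 site: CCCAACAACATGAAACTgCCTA

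The complement of the miR-196 seed stood downstream of the coding sequence in 8 of 39 members (*Hoxa4*, *Hoxa5*, *Hoxa7*, *Hoxa9*, *Hoxb1*, *Hoxb6*, *Hoxb7* and *Hoxc8*) and in 5.90% of 21662 genes' longest coding transcripts. That of the miR-10 seed stood in members including *Hoxa3*, *Hoxb3* and *Hoxd1* and in 12.0% of genes. *Hoxb8*, the member with that site, was at 157 CPM on average.

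The partners and regulators of Hox genes were counted in the same fit. All 9 cofactors of the Pbx, Meis and Pknox families were tested and 0 were called (0.0719% of all genes). Of the 9, 1 had an unadjusted p under 0.05 in edgeR's exact test (4.26% of all genes), *Pknox1* with 0.0409 (log2 fold change −0.18 ± 0.06). *Meis2*, one of the cofactors, was at 47.0 to 56.7 CPM. Of 19 Polycomb genes, which keep Hox genes silent, and of 9 Trithorax and H3K27 demethylase genes, which keep them active, 0 were called by edgeR's exact test, with median log2 fold changes of 0.01 and −0.03. Of the 14 embryonic inputs to the Hox clusters, 7 were tested and 0 called, and *Cdx1*, *Cdx2*, *Cdx4*, *Fgf8* and *Wnt3a* had at most 3 counts in every mouse. The 11 motor neuron genes and 3 of the 11 forebrain and midbrain genes were tested and 0 were called. In all of these lists the quasi-likelihood test called 0 genes (0.00514% of all genes). It gave an unadjusted p under 0.05 to 2 of the 9 cofactors and 1 of the 9 Trithorax and demethylase genes, against 6.71% of all genes. Beside *Pknox1* these were the cofactor *Pbx4* (log2 fold change −0.21 ± 0.09) and the Trithorax gene *Men1* (−0.16 ± 0.06), both above 0.05 in the exact test. The genotypes did not overlap in 2 of the 9 cofactors, *Pknox1* and *Pbx4*, both with lower values in all 4 Cre control mice (3.88% of all genes). The spread of the cofactors (median coefficient of variation 0.0847) and Polycomb genes (0.0907) was lower than that of all genes (0.133).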

How the data were processed

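Poly(A)-selected RNA of whole lumbar spinal cord was sequenced with a stranded kit. Per the submitters' processing notes and the methods of the study, the authors trimmed reads with Trimmomatic 0.36, aligned them to mm10 with STAR 2.7.3a and deposited raw counts per gene made with featureCounts (Subread 1.6.3) on GENCODE M25. The authors also deposited log2 values normalized in edgeR 3.26.8, which were used only as a check. They hold the same 19470 genes that passed the filter here and differed by at most 4.78e-06 from recomputed values.

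Mice were grouped by the genotype in their labels. Of 55291 genes, those kept by filterByExpr (minimum 10 counts) were scaled by TMM and compared with the exact test of edgeR 4.0.16 under R 4.3.3, with dispersions from estimateDisp without a design. The p-values were adjusted by Benjamini-Hochberg over all tested genes (threshold 0.05). Log2 fold changes are Cre control over Ager-deleted, with standard errors from the quasi-likelihood fit. Single values on log2(CPM + 1) were compared by exact permutation. Mice are labelled as separate animals.

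Positions, exon lengths and overlaps are from GENCODE M21 on GRCm38, an earlier release than the authors used, matched by symbol for all 39 members. The members and gene lists were chosen with earlier results of these data known. Statistics are printed for the member with the highest CPM per kilobase in each cluster and the 3 with the largest spread. Any with an unadjusted p under 0.05 or genotypes that did not overlap were also to be printed, of which there were 0. Hoxa11, Hoxd10, Hoxc8 and Hotair were added after their values were seen. A few genes are not reported here singly, and the plots by gene begin at group 2.

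The tests were run on simulated counts with 200 of 19253 genes changed by a log2 of 1.5. The exact test found 198 of these, with 38 false calls. With the quasi-likelihood test these numbers were 195 and 19. The changed genes were drawn only from genes above a minimum mean count. Their recovery therefore does not give the power for the members of groups 11 to 13, whose coefficients of variation reached 1.21. All 28 pairs of libraries differed beyond sampling noise (chi-square per degree of freedom 16.1 to 119). Alternatives were other size factors, filters and dispersions, DESeq2 1.42.0, limma-voom (limma 3.58.1), the muscle score as covariate, other weights of the index, and mice left out. Left-out mice for the spread, the index as covariate and shares per unshared exon were added after seeing the data.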

Additional observations from a re-analysis of the deposited data

Results flagged for a closer look

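Within a genotype of 4 mice, a mouse was singled out where its gap to the nearest other mouse, divided by the range of the 4, exceeded Dixon's critical value. This was applied to 87 groups of values, and chance alone singles out about 1 in 20. It held for 6. Mouse E5386 was below the other Cre control mice in *Hoxd11* (0.629 CPM, others 4.82 to 5.59) and in *Hotair* (0.164 CPM, others 2.19 to 2.60), and above them in *Hoxa6* (7.71 CPM, others 5.99 to 6.27). Mouse E6578 was above the other Cre control mice in *Hoxa10* (34.4 CPM, others 32.0 to 32.1). Among the Ager-deleted mice, E5248 was above the others in *Hoxb13* (0.423 CPM, others at most 0.0254) and E1776 was above the others in *Hoxb4* (13.3 CPM, others 8.44 to 9.19).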

How the results depend on the processing

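The count of 0 Hox genes called was the same in 19 of 19 planned settings of the test. Among these an unadjusted p under 0.05 appeared once, for *Hoxc12* without E1776 (0.015, adjusted p 1.0, edgeR's exact test, log2 fold change −2.31). With the rostrocaudal index as covariate 0 Hox genes were called for genotype, and 3 (*Hoxb5*, *Hoxb6* and *Hoxb8*) had an unadjusted p under 0.05, against 2133 of all genes (11%). That index is made of the Hox genes, so this fit is no independent test of them. The count over all genes was 14. It was 8 with a filter of at least 1 CPM, 1 with the quasi-likelihood test, 78 with common and tagwise dispersions, 27 with DESeq2, 1 with limma-voom and 67 without E5386 and E5642. With a covariate in the quasi-likelihood test, which alone gave 1, it was 1 for the muscle score and 1 for the rostrocaudal index. With 1 mouse left out it ranged from 3 to 98. It was 3 without E5231, 53 without E5248, 8 without E5568, 72 without E5386, 8 without E5642, 98 without E6578 and 89 without E6732. The cause was not tested. Uncalled log2 fold changes changed sign with 1 mouse left out, with ranges of −0.01 to 0.08 for *Hoxa7*, −0.07 to 0.01 for *Hoxd8* and −0.90 to 0.35 for *Hotair*, whose value was −0.52 with all mice and 0.35 without E5248. With 1 mouse left out the difference in index ranged from −0.129 to 0.004. Among other weightings it was −0.025 without cluster C and −0.136 without cluster B. As a log2 difference between groups 10 to 13 and groups 5 to 9, on another scale, it was −0.434. *Hoxc11*, *Hoxd11*, *Hoxa11*, *Hoxd10* and *Hoxc12* stayed negative and *Hoxc8* positive in every alternative run, and none was called. In the filter of at least 1 CPM *Hoxc12* was not tested. The index gave E5386 the lowest and E5248 the highest place in 8 of 8 other weightings. Genes detected in no mouse numbered 3 with a floor of 10 counts and 0 with a floor of 1 count. The median coefficient of variation of groups 11 to 13 fell from 0.634 to 0.354 without E5248 and E5386. No paired analysis was possible because the mice carry identity numbers that link no mouse of one genotype to one of the other. The detection floor of 3 counts affected only members of groups 12 and 13 and *Hoxb1*. What 4 mice per genotype can resolve at these spreads was not estimated for any group.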
